A study of Mus musculus with 3 samples.

Results

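The cytochrome P450 genes of families 1 to 4 were read in 3 cell fractions of mouse epididymal fat. They were taken by name from the gene name column of the arrays, as every name made of Cyp, a family digit from 1 to 4, a subfamily letter and a number. This gave 110 probes and 82 genes, among 56602 probes and 37073 genes in all. Of the 82 genes, 4 are named as pseudogenes and 1, Cyp4x1os, as an opposite-strand transcript.

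The fat came from male C57/BL mice that were 20 weeks old, with no treatment given, and was digested with collagenase. A first short spin set apart the lower phase, the stromal vascular cells (SVC), and a second spin of the floating cells gave a floating layer, the mature adipocytes (MA), and a sediment, the small proliferative adipocytes (SPA). SVC and SPA were grown in DMEM to near confluence before their RNA was extracted, and no culture is described for MA, so that the culture and the cell fraction cannot be told apart in any comparison with MA. The titles also give MA another date than the other groups, and how many animals gave each RNA is not stated. Each group holds 1 array, 3 arrays in all on 1 slide, so that no difference has a replicate check and no test, SD or p-value is given.

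P450s of these families are haem enzymes of the endoplasmic reticulum that add an oxygen atom to their substrates, with electrons from the reductase Por and, for some reactions, from cytochrome b5. Families 1 to 3 are best known from the liver, where they oxidise drugs, toxins and steroids, and the enzymes of family 4 mainly hydroxylate fatty acids and eicosanoids. Family 1 genes are switched on by the aryl hydrocarbon receptor, Cyp2b genes by the receptor Nr1i3 (CAR) and many Cyp4a genes by Ppara.

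The level of a gene is given on the log2 scale against its array's own 75th percentile, so that 0 is the signal of a gene at that percentile. A probe was read as detected where the scanner software marked it as well above background. The lowest level of such a probe was -4.95 in SVC, -5.14 in SPA and -5.15 in MA. Where a gene was detected on 1 array of a pair, its fold is a lower bound against that limit or against the dim probe's own level, whichever was higher. A gene with several probes was read at the brightest one over the arrays, and levels of different genes are not set against each other, since each probe has its own response. In these bulk samples, fewer cells of a type and less RNA per cell cannot be told apart.

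The labels were set against cell type markers. All 8 adipocyte markers were detected in MA and in SPA and 6 of 8 in SVC, where Adipoq and Plin1 were not well above background. The summed level of that list, on the linear scale relative to the 75th percentile, came to 3.7 for SVC, 32.3 for SPA and 1870 for MA. The summed level of the 8 stromal progenitor markers, all detected on each array, was 252 in SVC, 148 in SPA and 318 in MA. Such sums follow the brightest probes. In MA the largest part is Dcn, at 7.50, against 6.04 in SVC and 5.53 in SPA. The median log2 ratio of that list was -0.54 for MA over SVC, with Pdgfra 5.76-fold lower in MA and Cd34 4.67-fold higher. Macrophage markers summed to 139, 171 and 87.1 in SVC, SPA and MA (8 of 8 detected on each), endothelial markers to 3.31, 5.53 and 83.4 (8 of 8 on each), and mesothelial markers to 71.9, 17.9 and 26.7 (8 of 8 on each). Erythrocyte markers summed to 0.395, 0.43 and 679, with 3, 3 and 6 of 7 detected. Neutrophil markers summed to 60.7, 68.3 and 79.4, with 6, 5 and 6 of 8 detected. Most of each neutrophil sum is Csf3r, at log2 levels of 5.87, 5.94 and 6.23. S100a8 was highest in SPA, while S100a9 was highest in MA and not detected in SPA.

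A smaller share of the P450 genes than of all genes was detected. In SVC 27 of the 82 genes were well above background, which is 32.9% against 57% of all 37073 genes. In SPA the count was 34 (41.5% against 60%) and in MA 39 (47.6% against 60.4%). On all 3 arrays 26 of the genes were detected, while 53.6% of all genes were. A further 37 genes were detected on no array, which holds for 34.8% of all genes. Of the 82 genes, 10 were detected in MA alone (12.2% against 4.11% of all genes), 6 in SPA alone (7.32% against 1.98%) and 0 in SVC alone (0.626% of all genes).

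The undetected genes came from most of the larger subfamilies. In the Cyp3a subfamily, which oxidises many drugs and steroids, 6 of 8 genes were detected on no array. In the large Cyp2c subfamily, whose enzymes include arachidonic acid epoxygenases, this held for 10 of 16 genes. It also held for 2 of 4 Cyp2a genes, 2 of 5 Cyp2b genes, 3 of 10 Cyp2d genes, 2 of 6 Cyp2j genes, 3 of 7 Cyp4a genes and 5 of 10 Cyp4f genes. Cyp1a2, the constitutive liver enzyme of family 1, the olfactory gene Cyp2g1, and Cyp4x1 with its opposite-strand partner were not detected either.

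**Figure D1:**
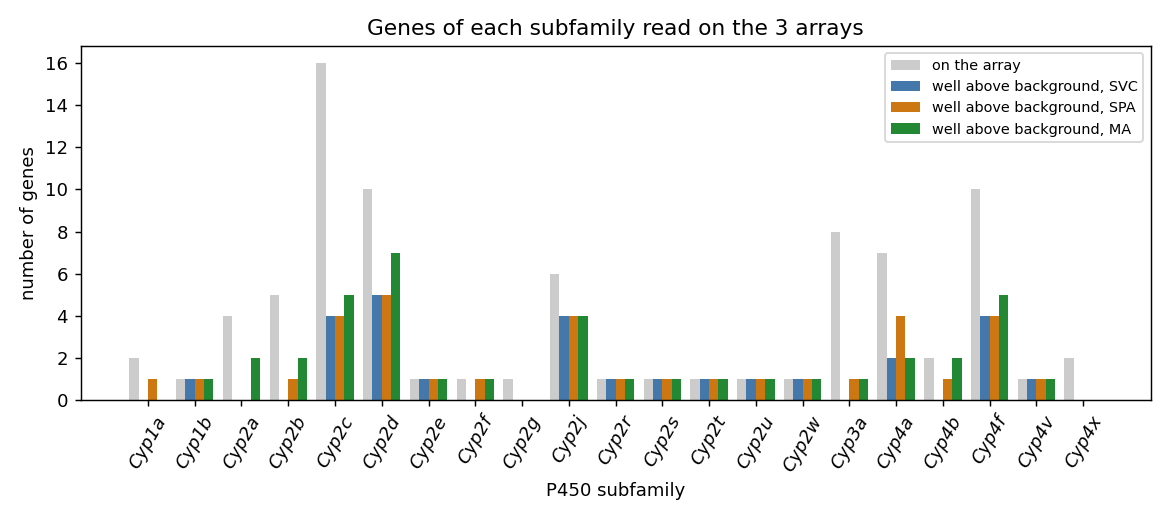
Number of genes (vertical axis) in each P450 subfamily (horizontal axis) on the array and well above background in SVC, SPA and MA, with 1 array a group. In Cyp3a 1 of 8 genes was detected in SPA and 1 in MA, while 5 Cyp2d genes were detected in SVC and in SPA and 7 in MA.

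**Figure D2:**
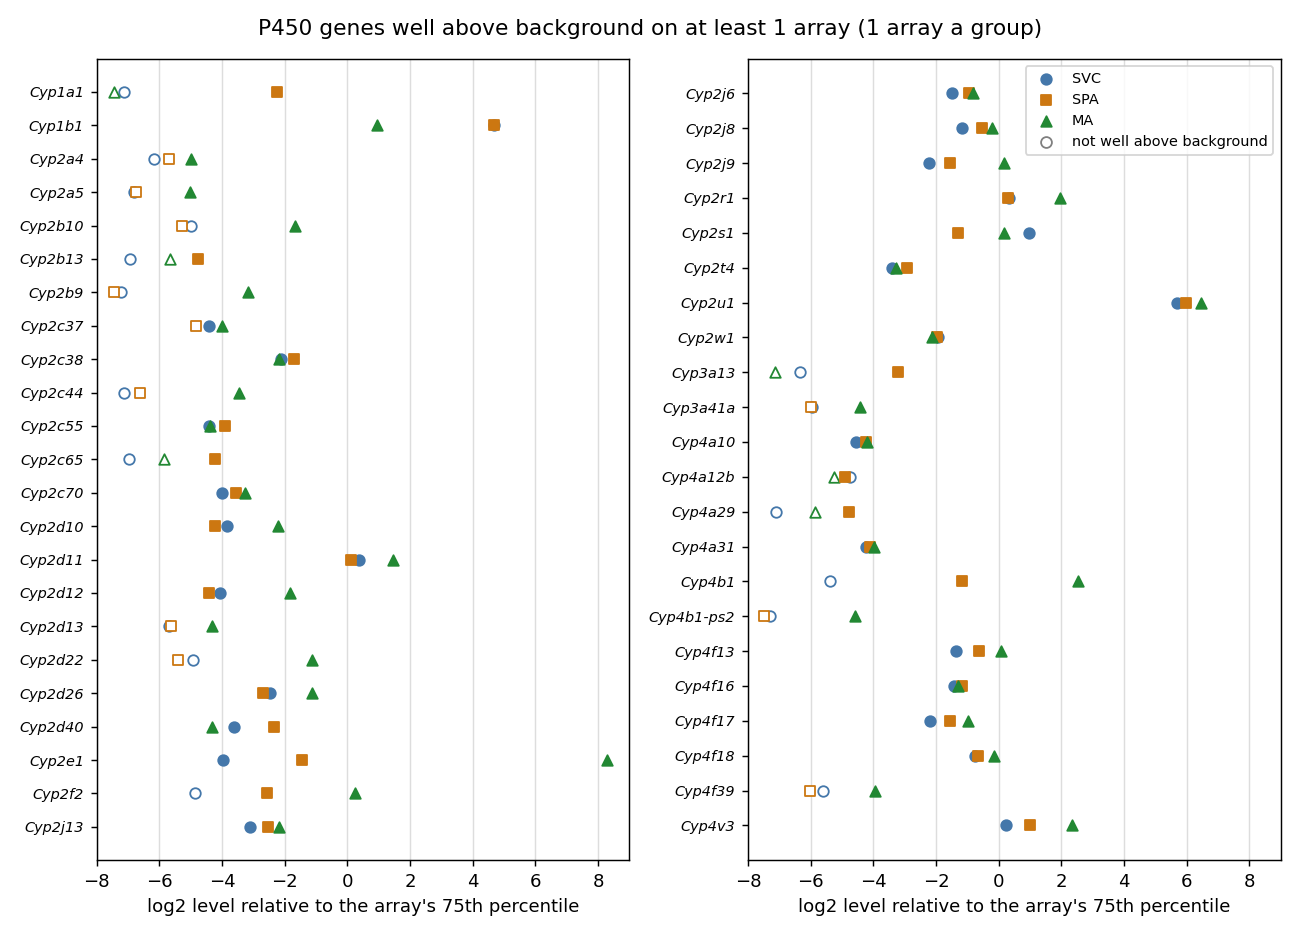
Log2 level against the array's 75th percentile (horizontal axis) of the 45 P450 genes detected on 1 array or more. Filled symbols are detected and open symbols are not, 1 array a group, and Cyp2e1 shows the widest spread, from -3.96 in SVC to 8.28 in MA.

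SPA and SVC, the cultured fractions, were compared first, which asks how the proposed precursor differs from other stromal cells. At 5-fold or more, 3 of 35 P450 genes detected on either array were higher in SPA (Cyp1a1, Cyp2e1 and Cyp4b1) and 0 were lower, where 0.322% of the 22663 genes tested were higher and 0.353% lower. At 2-fold, 6 P450 genes were higher and 1 was lower, against 3.9% and 3.25% of all genes. The 26 P450 genes detected on both arrays had a median log2 ratio of 0.35, with 18 above 0, beside a median of 0.05 over 20698 genes.

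MA was then compared with SPA and with SVC. Over SPA, 6 of 45 P450 genes were at least 5-fold higher (Cyp2b10, Cyp2d12, Cyp2d22, Cyp2e1, Cyp2f2 and Cyp4b1), against 5.49% of all 23956 genes tested, and 2 were lower (Cyp1a1 and Cyp1b1), against 3.98%. Over SVC, 6 of 39 were higher (Cyp2b10, Cyp2d22, Cyp2e1, Cyp2f2, Cyp2j9 and Cyp4b1), against 5.74% of 23453 genes, and 1 was lower (Cyp1b1), against 3.97%. At 2-fold, 16 P450 genes were higher in MA than in SPA and 4 lower, against 15.8% and 17.9% of all genes. The same limit gave 16 higher and 1 lower in MA than in SVC, against 17.3% and 18%. These comparisons share their arrays, so each is given by its own values only.

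**Figure D3:**
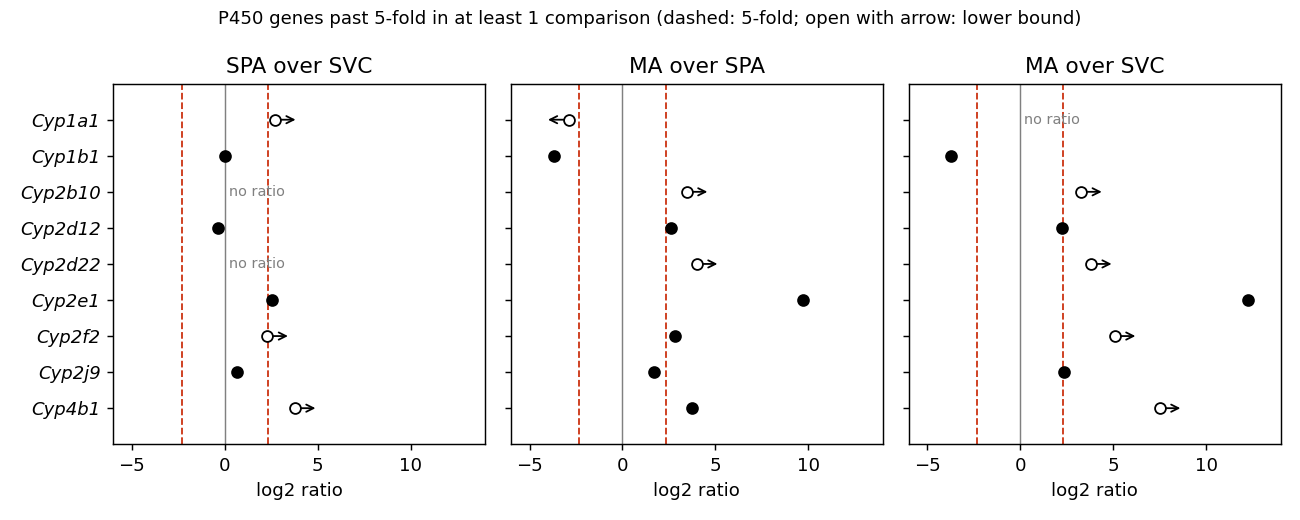
Log2 ratio (horizontal axis) of the 9 P450 genes past 5-fold in at least 1 of the 3 comparisons, 1 array a group. Filled points are genes detected on both arrays, open points with an arrow are lower bounds, dashed lines mark 5-fold, and Cyp1b1 lies at 0 between SPA and SVC but past 5-fold below it in both comparisons with MA.

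Family 1 holds the targets of the aryl hydrocarbon receptor, and its members on the array behaved unlike each other. Cyp1a1, which oxidises polycyclic aromatic hydrocarbons, was detected in SPA alone, at a level of -2.25, with -7.12 in SVC and -7.44 in MA. The SPA signal was 92.3 ± 9.56 (the error of the scanner software's own model, within 1 array). SPA thus stood at least 6.51-fold over SVC and at least 7.46-fold over MA. Another background correction, normexp, adds 50 to each signal and so makes the folds of dim genes smaller. Under it these log2 differences became 1.22 for SPA over SVC and -1.11 for MA over SPA, short of 5-fold. In the block of the SPA array around its spot, 9.95% of the spots that were dim in SVC were detected, beside 9.77% over the whole array.

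Cyp1b1, an extrahepatic enzyme that oxidises oestradiol and hydrocarbons, was at 4.67 in SVC, 4.67 in SPA and 0.96 in MA. Both cultured fractions were high and level with each other. MA was 13-fold lower than either, with a log2 ratio of -3.70 to SPA and -3.71 to SVC, and normexp gave -3.60 and -3.62.

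The promoters of the pair are shown because the core letters bound by the aryl hydrocarbon receptor, GCGTG, occur once in each while the readings differ. The sequences are the 250 bases upstream of the start, from RefSeq on GRCm38.p6, with GCGTG or its reverse complement CACGC and the TATA box letters TATAAA in capitals. Cyp1a1 lies at chr9:57697363-57697612 on the plus strand and Cyp1b1 at chr17:79715062-79715311 on the minus strand. Either strand of GCGTG is found in 28.2% of the 32851 promoters of that length and of TATAAA in 12.4%.
Cyp1a1: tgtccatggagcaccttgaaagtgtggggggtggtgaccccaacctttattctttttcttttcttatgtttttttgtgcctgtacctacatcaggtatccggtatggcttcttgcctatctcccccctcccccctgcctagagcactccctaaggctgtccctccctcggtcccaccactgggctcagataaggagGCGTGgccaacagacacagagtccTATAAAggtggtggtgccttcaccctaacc
Cyp1b1: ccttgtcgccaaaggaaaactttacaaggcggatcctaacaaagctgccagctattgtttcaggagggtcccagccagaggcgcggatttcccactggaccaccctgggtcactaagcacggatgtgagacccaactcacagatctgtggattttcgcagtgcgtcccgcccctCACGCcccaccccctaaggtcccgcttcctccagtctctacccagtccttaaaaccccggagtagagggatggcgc

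Cyp2e1, which oxidises ethanol, ketone bodies and small solvents, had the widest difference. Its brightest probe, at chr7:147960628-147960687 (mm9, plus strand), read -3.96 in SVC, -1.44 in SPA and 8.28 in MA. MA was 846-fold above SPA and 4850-fold above SVC. SPA was 5.73-fold above SVC at this probe.

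The other Cyp2e1 probe lies further upstream in the transcript, at chr7:147959585-147959644, and read the gene in MA only. Its levels were -7.05 in SVC and -6.25 in SPA, not well above background, and 6.43 in MA. This is at least 2670-fold over SVC and at least 3030-fold over SPA, and it gives no ratio between SPA and SVC. The local background of the brighter spot was marked as outlying on all 3 arrays and that of the other spot on none. With such spots left out, Cyp2e1 was no longer called higher in SPA than in SVC. Normexp brought the SPA over SVC log2 ratio of the brighter probe to 1.38. The upstream probe is shown because the higher level in MA was read at both places and the difference between SPA and SVC at only 1 of them.
Cyp2e1 upstream probe: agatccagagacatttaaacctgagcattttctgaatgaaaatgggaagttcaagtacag

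The median log2 ratio of the adipocyte markers was 3.66 between SPA and SVC (6 genes detected on both arrays, from 0.25 for Lep to 5.91 for Cidec). Between MA and SPA it was 5.19 (8 genes). Other lists were also higher in MA than in SPA, with medians of 10.90 for erythrocyte (3 genes) and 3.61 for endothelial markers (8 genes). Mesothelial markers had a median of 1.31 and stromal progenitor markers of 0.56 (8 genes each). The medians of macrophage (-0.40, 8 genes) and neutrophil markers (-1.27, 5 genes) went the other way, though single members did not. At 5-fold, 2 macrophage markers were higher in MA (C1qa, 11.3-fold, and C1qb, 12.3-fold) and 1 was lower (Cd68, 8.58-fold). S100a9, not detected in SPA and so outside the neutrophil median, was at least 40.5-fold higher in MA. Of 8 hepatocyte markers, 4 were detected in SVC, 5 in SPA and 5 in MA, with a summed level of 3.21, 4.65 and 77.3. Most of the MA sum is Serpina1a, at -5.10 in SVC, where it was not detected, -2.00 in SPA and 6.16 in MA. Albumin was detected in MA only, at 0.20, and Apoa1 and Ttr were detected on no array. Apoh went the other way, at -3.74 in SVC and -1.98 in SPA and not detected in MA. Apoa2, Tat and Ahsg were detected on each array and stayed within 5-fold. The part of the cells behind these markers in the Cyp2e1 result was not tested. Of 8 markers of the epididymal epithelium, 1 (Rnase10) was detected on each array, and the list summed to 0.464 in SVC, 0.376 in SPA and 0.452 in MA.

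Cyp4b1, which hydroxylates fatty acids and activates plant toxins such as ipomeanol, was higher at both steps from SVC over SPA to MA. It read -5.39 in SVC, where it was not detected, -1.18 in SPA and 2.55 in MA. SPA was at least 13.6-fold above SVC, MA 13.3-fold above SPA, and MA at least 182-fold above SVC. Under normexp the log2 ratios were 1.86, 3.38 and 5.24, and only the first was short of 5-fold.

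The pseudogene Cyp4b1-ps2 was detected in MA alone, at -4.57, with -7.29 in SVC and -7.48 in SPA. Its probe shares a stretch of 23 bases with that of Cyp4b1, of which 21 match. The stretch is shown because the pseudogene was detected only in the fraction where the gene itself is highest, and capitals mark the 2 bases that differ. Whether the pseudogene probe also reads Cyp4b1 was not tested.
Cyp4b1: ctgTcttgagaaacttCatttat
Cyp4b1-ps2: ctgCcttgagaaacttAatttat

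Cyp2f2, the enzyme of airway club cells that activates naphthalene, was not detected in SVC (-4.86) and was at -2.57 in SPA and 0.24 in MA. SPA stood at least 4.88-fold over SVC, just under the limit. MA was 6.99-fold above SPA and at least 34.1-fold above SVC. Under normexp, MA over SPA came to 2.06 on the log2 scale, short of 5-fold, and MA over SVC to 2.88.

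The upstream sequences of Cyp2e1 and Cyp2f2 are shown because both genes were high in MA and differ in their letters. Capitals mark TATAAA in Cyp2e1 (chr7:140763569-140763818, plus strand, GRCm38.p6) and AGGTCA, the letters of a nuclear receptor half-site, in Cyp2f2 (chr7:27119705-27119954, plus strand). AGGTCA or its reverse complement TGACCT is found in 14% of all promoters of that length. The same window of Cyp4b1 holds none of the 3 motifs searched on either strand.
Cyp2e1: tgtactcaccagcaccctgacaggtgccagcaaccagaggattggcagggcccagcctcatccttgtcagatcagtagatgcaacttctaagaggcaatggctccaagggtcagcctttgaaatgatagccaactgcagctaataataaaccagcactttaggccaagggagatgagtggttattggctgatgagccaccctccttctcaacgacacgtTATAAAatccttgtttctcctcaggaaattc
Cyp2f2: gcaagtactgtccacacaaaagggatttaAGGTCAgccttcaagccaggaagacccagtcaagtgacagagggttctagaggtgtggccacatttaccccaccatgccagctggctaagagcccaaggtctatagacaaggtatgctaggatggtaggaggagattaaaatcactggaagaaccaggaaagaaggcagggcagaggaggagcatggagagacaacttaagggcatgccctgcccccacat

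Of the 5 Cyp2b genes, classic targets of CAR in the liver, 2 were detected in MA alone, 1 in SPA alone and 2 on no array. Cyp2b10 read -4.98 in SVC and -5.27 in SPA, not detected, and -1.67 in MA, at least 9.73-fold above SVC and at least 11-fold above SPA. Its other probe was not well above background on any array. The local background of the brighter spot was outlying on the SPA array, and with such spots left out, or under normexp (1.48 over SVC and 1.55 over SPA), Cyp2b10 no longer passed 5-fold.

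Cyp2b9 was detected in MA alone as well, at -3.18, with -7.24 in SVC and -7.45 in SPA. Its probe is annotated to transcripts of Cyp2b9 and Cyp2b10, so that the signal of the one cannot be told from that of the other. Cyp2b13 was detected in SPA alone, at -4.77, close to the limit of that array.

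The Cyp2d subfamily, which holds the mouse relatives of the human drug-oxidising CYP2D6, was higher in MA at most of its detected members. Cyp2d22 was not detected in SVC (-4.94) or SPA (-5.40) and was at -1.13 in MA, which makes MA 14-fold over SVC and 16-fold over SPA as lower bounds. Cyp2d12 read -4.07 in SVC, -4.43 in SPA and -1.84 in MA, which is 6.03-fold above SPA and 4.7-fold above SVC. With normexp, Cyp2d22 gave 1.80 over SVC and 1.89 over SPA and Cyp2d12 1.24 over SPA, all short of 5-fold.

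The next 3 members moved the same way by less. Cyp2d10 was at -3.84 in SVC, -4.22 in SPA and -2.23 in MA. Cyp2d11 was at 0.37, 0.11 and 1.44, and Cyp2d26 at -2.48, -2.68 and -1.13, in the same order. Each was lowest in SPA and highest in MA, by 2-fold or more in both comparisons with MA, and the second, dimmer probe of Cyp2d26 gave smaller log2 ratios, 0.69 over SPA and 0.52 over SVC.

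Cyp2d40 ran the other way. It was at -3.61 in SVC, -2.34 in SPA and -4.31 in MA, so that SPA was highest, 1.27 on the log2 scale above SVC, and MA over SPA was -1.97, with its second probe detected on no array. Cyp2d13 was detected in MA alone, at -4.33, and its second probe was not detected on any array. The probes of Cyp2d10, Cyp2d11 and Cyp2d12 are shown because these genes are close relatives, while each probe is annotated to 1 gene. Whether each probe reads its own gene alone was not tested.
Cyp2d10: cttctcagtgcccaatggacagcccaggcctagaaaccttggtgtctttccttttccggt
Cyp2d11: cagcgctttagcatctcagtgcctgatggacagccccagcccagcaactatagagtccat
Cyp2d12: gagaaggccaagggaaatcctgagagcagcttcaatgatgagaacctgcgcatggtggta

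The Cyp2j enzymes are epoxygenases of arachidonic acid outside the liver, and 4 of 6 were detected on every array. Cyp2j9 read -2.21 in SVC, -1.55 in SPA and 0.16 in MA, 5.16-fold higher in MA than in SVC and 3.29-fold higher than in SPA. Its other probe was not detected on any array, and under normexp the log2 ratio of MA to SVC was 1.75.

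The other detected members lay in the same order, SVC lowest and MA highest, within 2-fold over the whole range at the brightest probe of each. Cyp2j6 was at -1.49 in SVC, -0.95 in SPA and -0.83 in MA, while its second probe was detected in MA alone (-3.98), at least 2.23-fold above SPA and at least 1.97-fold above SVC. Cyp2j8 was at -1.16, -0.54 and -0.20. Cyp2j13 was at -3.12, -2.52 and -2.19, with its probe annotated to Cyp2j12 also and its other 3 probes not well above background.

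The Cyp2c genes that were detected on every array differed little. Cyp2c38 was at -2.12 in SVC, -1.72 in SPA and -2.18 in MA. Cyp2c70, a bile acid enzyme of the rodent liver, was at -4.01, -3.55 and -3.28. Cyp2c55 was at -4.42, -3.91 and -4.40 at one probe, and its second probe put SPA below SVC, at a log2 ratio of -0.53 in place of 0.50.

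None of Cyp2c38, Cyp2c70 and Cyp2c55 came near 5-fold. Cyp2c37, with a probe shared with Cyp2c50, was detected in SVC (-4.43) and MA (-4.01) but not in SPA (-4.84). Cyp2c44, now named Cyp2c23 and an arachidonic acid epoxygenase of the kidney, was detected in MA alone, at -3.45, at least 3.21-fold above SPA. Its second probe was not detected on any array. Cyp2c65 was detected in SPA alone, at -4.22, where the local background was outlying.

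The single-gene subfamilies of family 2 gave 5 further genes read on every array. Cyp2r1, the vitamin D 25-hydroxylase, was at 0.33 in SVC, 0.31 in SPA and 1.96 in MA. The cultured fractions lay level and MA was higher, by 1.65 on the log2 scale over SPA. Cyp2s1, an epithelial enzyme, was at 0.97 in SVC, -1.31 in SPA and 0.16 in MA, so that SVC was 4.85-fold above SPA. With the 75th percentile taken over probes detected on all arrays, the log2 ratio of Cyp2s1 passed 5-fold at -2.32, which makes the split 3 higher and 1 lower in SPA, and its second probe was not detected on any array.

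Cyp2t4 and Cyp2w1 differed by less than 2-fold at the probes read on every array. Cyp2t4 was at -3.41 in SVC, -2.93 in SPA and -3.28 in MA. Cyp2w1 was at -1.92, -1.95 and -2.14 in the same order. The second probe of Cyp2w1 ran the other way, detected in MA alone (-4.35), at least 1.71-fold above SPA and at least 1.52-fold above SVC. Of the Cyp2a genes, Cyp2a4 and Cyp2a5 were detected in MA alone, at -5.00 and -5.02, near the limit of detection, and the Cyp2a4 probe is annotated to both.

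Cyp2u1, a fatty acid hydroxylase, gave the widest disagreement between probes of 1 gene. The brightest of its 3 probes, at chr3:130996343-130996402 (mm9, minus strand), read 5.69 in SVC, 5.99 in SPA and 6.46 in MA. The second, at chr3:131000768-131000827, read -2.94, -3.81 and -3.13, and the third, at chr3:130997965-130998356 and so across a gap in the genome, read -2.34, -2.27 and -2.02. The brightest was thus 8.63 to 9.80 above the dimmest on the log2 scale.

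The letters of the brightest probe set it apart from the others. It holds a run of 32 bases of alternating G and T, of which a window of 30 bases is shown with the run in capitals, beside the second probe, which has no such run. Of the 3 probes, only the second is annotated to RefSeq transcripts.
Cyp2u1 brightest probe (window): tgGTGTGTGTGTGTGTGTGTGTGTGTGTGT
Cyp2u1 second probe: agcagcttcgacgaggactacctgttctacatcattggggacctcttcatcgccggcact

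On the whole array, 48 named probes hold 10 or more GT units in a row, and all 48 were detected on all 3 arrays, against 52.5% of all probes. Their median level was 4.76 in SVC, 5.0 in SPA and 5.62 in MA, beside -3.91, -3.82 and -3.81 over all probes. On each array 10 of the 48 were brighter than the Cyp2u1 probe. Their median log2 ratio was 0.29 for SPA over SVC, 0.57 for MA over SPA and 0.85 for MA over SVC, and the Cyp2u1 probe gave 0.30, 0.47 and 0.77. At the other 2 probes the ratio of MA to SVC was -0.19 and 0.31. What the repeat adds to the signal was not tested.

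**Figure D4:**
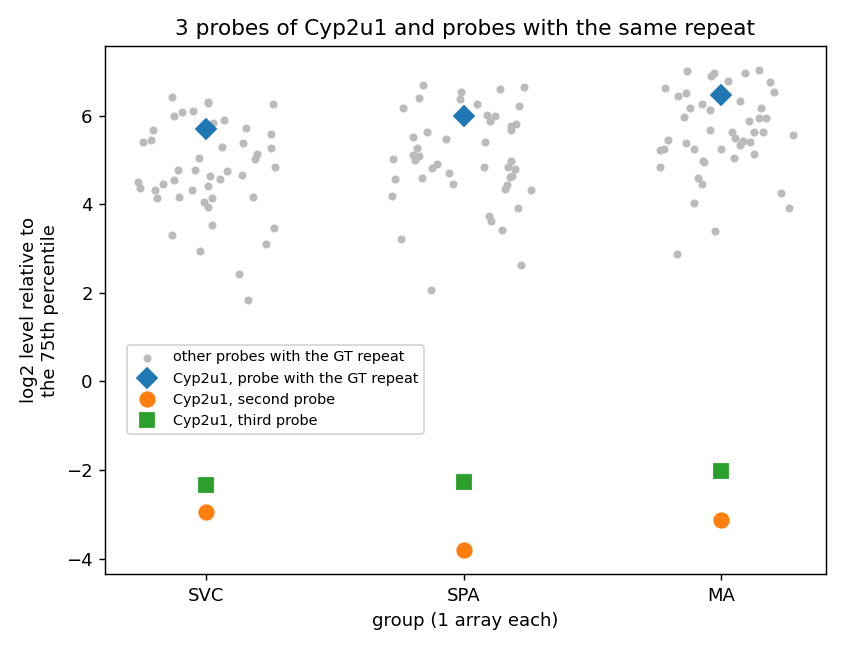
Log2 level relative to the 75th percentile (vertical axis) of the 3 probes of Cyp2u1 in SVC, SPA and MA (1 array each), with the 47 other probes that hold 10 or more GT units in a row in grey, spread sideways for sight. The Cyp2u1 probe with the repeat lies among the grey points, and the other 2 lie between -3.81 and -2.02.

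In family 3, Cyp3a13, a steroid and drug oxidase that is also found outside the liver, was detected in SPA alone. It read -6.35 in SVC, -3.20 in SPA and -7.14 in MA, at least 3.37-fold above SVC and at least 3.86-fold above MA. Cyp3a41a, whose probe is annotated to Cyp3a41b also, was detected in MA alone, at -4.43. The other 6 genes of the subfamily were not detected.

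Of the 6 genes detected in SPA alone, Cyp1a1, Cyp3a13, Cyp2b13 and Cyp4a12b had spots in blocks where 8.37% to 11.1% of the spots dim in SVC were detected in SPA. Around Cyp2c65 this share was 24.2% and around Cyp4a29 18.9%, and the local background of both spots was outlying on the SPA array. A block spans 16 rows and 8 columns to each side. Cyp4a12b, at -4.90 in SPA, read -4.75 in SVC, which was brighter and yet not well above background there. The levels of Cyp4a29 were -7.10 in SVC, -4.79 in SPA and -5.87 in MA.

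The Cyp4a genes, fatty acid omega-hydroxylases controlled by Ppara in the liver, were dim and level. Cyp4a10 was at -4.54 in SVC, -4.23 in SPA and -4.21 in MA. Cyp4a31 was at -4.23, -4.10 and -3.98 in the same order. Ppara itself was at -4.22 in SVC, -3.13 in SPA and 0.71 in MA, 14.3-fold over SPA and 30.5-fold over SVC. The probe of Cyp4a10 is annotated to Cyp4a32 also, and its other 2 probes were not detected.

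The Cyp4f genes hydroxylate leukotrienes and long fatty acids. Cyp4f13 was at -1.35 in SVC, -0.63 in SPA and 0.09 in MA, and Cyp4f17 was at -2.20, -1.55 and -0.96. Both lay in that order, with MA 1.44 and 1.24 on the log2 scale above SVC. The dimmer second probe of Cyp4f13 put MA 0.87 above SVC. Cyp4f16 was at -1.41, -1.18 and -1.29, and its second probe, which is annotated to Cyp4f37 also, put SPA below SVC by a log2 ratio of -0.23 in place of 0.22. Cyp4f18, which inactivates leukotriene B4 in neutrophils, was at -0.74, -0.65 and -0.15. A second probe of Cyp4f18, of which 56 of 59 bases match the first, gave 0.67 for MA over SVC where the first gave 0.59. The third probe, elsewhere in the gene, was detected in MA alone (-3.63), at least 2.83-fold above SPA and at least 2.48-fold above SVC. Cyp4f39 was detected in MA alone, at -3.96.

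Cyp4v3, the relative of the human CYP4V2 whose loss causes a retinal dystrophy, was at 0.25 in SVC, 1.01 in SPA and 2.34 in MA. It was highest in MA, 2.09 on the log2 scale above SVC and 1.33 above SPA, below 5-fold.

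The genes that P450s work with were read from 4 lists. Of the 7 electron donors and haem chaperones, all were detected on each array and 0 passed 5-fold in any comparison, with medians of 0.64 for SPA over SVC, -0.27 for MA over SPA and 0.96 for MA over SVC. Por, the reductase, was at 4.51 in SVC, 5.65 in SPA and 6.17 in MA. Cyb5a was at 5.45, 7.04 and 6.77.

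Of the 12 genes of haem synthesis and breakdown, all were detected on each array. At 5-fold, 0 passed between SPA and SVC. Hmox1, which breaks haem down, was at 5.65 in SVC, 7.79 in SPA and 4.63 in MA, so that MA was 8.94-fold below SPA. Alas1, the rate-limiting step of synthesis, was at 3.45, 4.28 and 6.07, 6.17-fold higher in MA than in SVC. No other gene of the list passed 5-fold in any of the 3 comparisons.

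Of the 9 receptors and factors, Nr1i2 (PXR) and Hnf4a were detected on no array, and those past 5-fold were Ppara, higher in MA than in both others, and Ahrr, lower in MA than in SPA. Nr1i3, the receptor behind Cyp2b10, was at -2.13 in SVC, -1.02 in SPA and -0.40 in MA. Ahr was at -0.18, -0.33 and -1.07, and its repressor Ahrr at -2.86 in SVC, -2.37 in SPA and -4.92 in MA, not detected there and at least 5.83-fold below SPA. Tiparp, another target of the receptor, was at 0.72, 1.10 and 2.96. Between SPA and SVC, Ahrr and Tiparp differed by 0.48 and 0.38 on the log2 scale, while Cyp1a1 was detected in SPA alone. Whether the receptor was active in any fraction was not tested.

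The last list, of 4 genes, is mixed and holds the epoxide hydrolases Ephx1 and Ephx2 beside Nqo1 and Aldh3a1, listed as target enzymes of the aryl hydrocarbon receptor. At 5-fold, 0 passed between SPA and SVC. All 4 genes were higher in SPA, with log2 ratios of 1.78 for Nqo1, 1.48 for Ephx2, 1.03 for Ephx1 and 0.59 for Aldh3a1 (median 1.26). Ephx2, which hydrolyses the epoxides that Cyp2j and Cyp2c enzymes make, was at -0.41 in SVC, 1.07 in SPA and 5.77 in MA, 25.9-fold higher in MA than in SPA. Nqo1, a quinone reductase, was at 2.25, 4.03 and -2.36, 84.3-fold lower in MA than in SPA. Ephx1, at 4.70, 5.73 and 3.71, and Aldh3a1, at 1.58, 2.17 and 2.32, stayed within 5-fold.

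**Figure D5:**
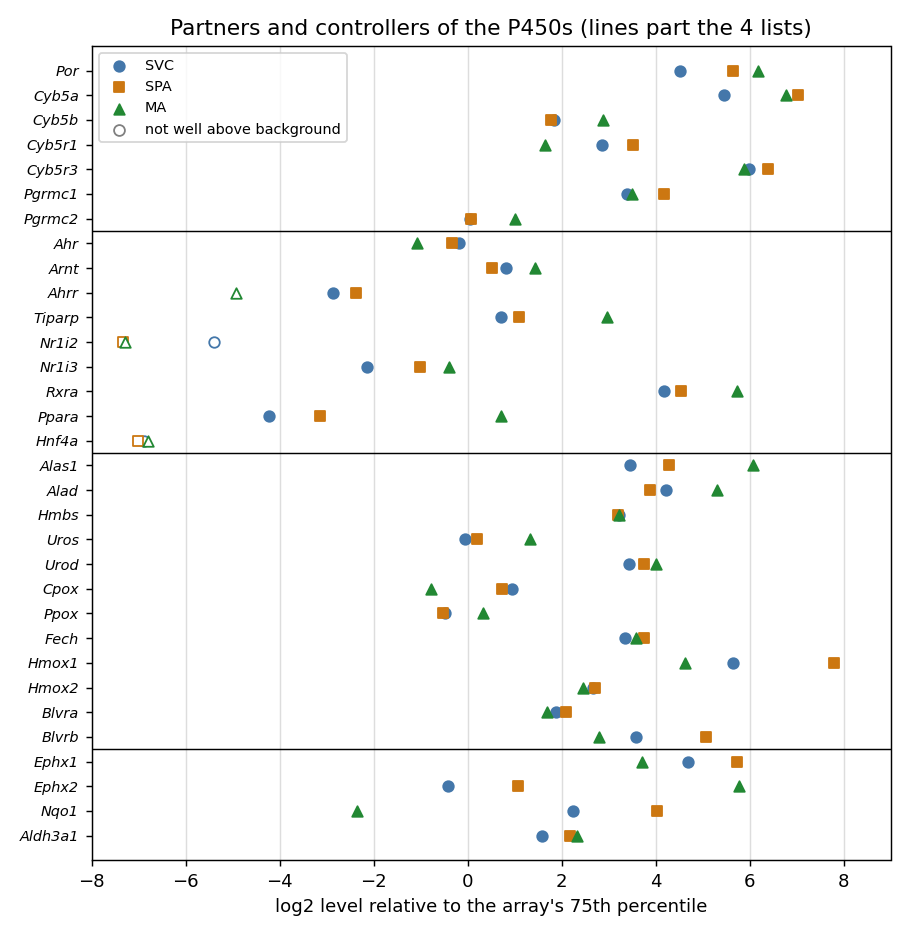
Log2 level relative to the 75th percentile (horizontal axis) of 32 genes in 4 lists. From top to bottom these are electron donors and haem chaperones, receptors and factors, haem synthesis and breakdown, and epoxide hydrolases with receptor target enzymes. Symbols are SVC, SPA and MA (1 array each), open where not well above background; Ephx2 and Ppara are highest in MA, Nqo1 and Hmox1 in SPA.

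The other P450 families, which make and break down sterols, bile acids, retinoids and steroid hormones, gave 19 genes and 26 probes. Of these genes 10 were detected in SVC (52.6% against 57% of all genes), 9 in SPA (47.4% against 60%) and 10 in MA (52.6% against 60.4%). On no array were 8 detected, which holds for 34.8% of all genes. Between SPA and SVC 0 of 10 passed 5-fold. At 2-fold, 0 were higher in SPA and 4 lower (Cyp11b1, Cyp26b1, Cyp51 and Cyp7b1), against 3.9% and 3.25% of all genes. The median log2 ratio of the 9 genes detected on both was -0.64, where that of families 1 to 4 was 0.35. At 5-fold, 1 of 11 was higher in MA than in SPA and than in SVC (Cyp27a1), against 5.49% and 5.74% of all genes. Lower in MA than in SVC was 1 of 11 (Cyp7b1), against 3.97%. The medians of MA over SPA were 0.03 for the other families (8 genes) and 0.48 for families 1 to 4 (28 genes), beside -0.08 over all genes. The difference between the groups of families was not tested.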

How the data were processed

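RNA of SVC, SPA and MA was hybridised to 1 Agilent 1-colour 60-mer array each. The authors deposited the intensity that Agilent Feature Extraction 10.7.3.1 wrote for each of 59305 spots that are not controls, as the processed signal after background subtraction, with the raw signal, the local background and the detection marks. The authors also deposited a ratio per spot, which is the processed signal over 1 constant per array (relative departure at most 1.37e-06). Their methods mention GeneSpring GX and their text a 5-fold limit, while the normalization is not given in the sources used here.

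The processed signal was taken to the log2 scale and each array was set to its 75th percentile (430, 439 and 366 in SVC, SPA and MA). Outlier spots were left out, 75, 98 and 129 by array and 0 of them on a P450 probe, and spots of 1 probe were averaged. Of the spots, 58.6% (SVC), 61.4% (SPA) and 61.3% (MA) were well above background and 0 were saturated. The number of arrays limits the precision. The median SD of probes spotted 10 times was 0.039 to 0.05 (log2) where all spots were detected, which is the error within an array only. The median signal over local background was 2.27, 2.33 and 2.2 in SVC, SPA and MA, and 3.21%, 5.01% and 1.85% of the spots had an outlying local background.

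Every P450 gene detected on at least 1 array was named, with its level on each array where it was detected on all 3 or passed 5-fold. The members and the 13 gene lists (9 of markers, 4 of pathway genes) were chosen with earlier results of these data known. Gene names are those of the array, and 78 of 82 had a RefSeq accession in the reference table, 1 of them under another name. A total of 17 probes are annotated to more than 1 gene. Probe positions follow the array's annotation (mm9), with no map of exons used here, and promoters, found for 63 of the 82 genes, are RefSeq's on GRCm38.p6. Python 3.11.15 (pandas 2.3.3, numpy 2.4.6) and limma 3.58.1 were used for the values and the normexp correction (offset 50), and the calling rule was tested on simulated data. A gene detected on 1 array of a pair passes only where its bound reaches 5-fold, so that dim genes with a true difference can be missed in either direction. Cyp2ab1, whose name has another form, and genes named Cypt were not members.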

Additional observations from a re-analysis of the deposited data

How the results depend on the processing

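Each count at 5-fold was computed under 10 alternatives, and every called P450 gene kept its direction wherever a ratio could be given. Under normexp the P450 genes higher in SPA than in SVC went from 3 to 0, those higher in MA than in SPA from 6 to 2, those lower in MA than in SPA from 2 to 1 and those higher in MA than in SVC from 6 to 3. Without a filter on dim probes, 5 were higher in SPA than in SVC, with Cyp2c65 and Cyp3a13 added. With probes detected on both arrays only, 1 was higher in SPA than in SVC, 1 lower in MA than in SPA and 2 higher in MA than in SVC, since this leaves out every lower bound. With the percentile over probes detected on all arrays, 1 gene, Cyp2s1, was lower in SPA than in SVC. At 2-fold the counts were 6 higher and 1 lower in SPA than in SVC, 16 higher and 4 lower in MA than in SPA, and 16 higher in MA than in SVC. The other 46 counts lay within 1.5 times the reported ones, quantile normalization, the authors' ratios and other rules for genes with several probes among them. They include the counts without spots of outlying local background. There Cyp2e1 was lost from the genes higher in SPA than in SVC (3 to 2) and Cyp2b10 from those higher in MA than in SPA and than in SVC (6 to 5 each). The normexp correction used here adds an offset of 50 to every signal, which makes the folds of dim genes smaller. The SPA signals of Cyp1a1, Cyp2e1 and Cyp4b1 were 92.3, 162 and 193. In MA the signals of Cyp2b10, Cyp2d12 and Cyp2d22 were 115, 102 and 167. At such signals a loss of 5-fold under normexp is no independent check of the call. How much of the change the offset made was not tested. The median over all genes of each comparison stayed between -0.09 and 0.05 (log2) under every scaling. No paired analysis was possible because each group holds 1 array, and for the same reason no replicate could be left out. Low signal over background limits the reading of the 37 undetected genes, which were not well above background on any array. Their levels need not lie under the lowest detected one, since Cyp2d34 read -5.03 in MA against -5.15.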
